A study of Homo sapiens with 8 samples.

Results

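Alpha and beta tubulin mRNAs were followed in the osteosarcoma cell line U2OS, either with an empty vector or with overexpression of QKI7, a splice form of QKI, which binds RNA. The members are tubulin genes chosen by name: the alpha genes TUBA1A, TUBA1B, TUBA1C and TUBA4A and the beta genes TUBB, TUBB2A, TUBB3, TUBB4B and TUBB6. Of these 9 genes, 8 are described in every library, out of 26902 entries of the expression table; TUBB was not analysed here. The choice was made with results of these data known, in which the footprints of TUBA1B and TUBA1C were among those most reduced with QKI7. The comparison of footprints between constructs, and the translation efficiency built on it, are therefore given for the members as a description, with no test. Footprint against input uses the same footprint libraries, so its p-values for the members are descriptive too.

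Cells of both constructs had received 0.5 mM sodium arsenite, an oxidative stressor, for 1 h. For each construct there were input and footprint libraries, 2 of each, which makes 4 groups and 8 libraries. Inputs are RNA depleted of ribosomal RNA, and footprints are ribosome-protected fragments of 17 to 34 nt. Cells without arsenite were not analysed here, so every value belongs to stressed cells. The sources used here do not say whether the cells were a clone or a pool, which promoter drove QKI7, or whether replicates stem from cultures grown apart. The p-values therefore measure the spread between libraries, and that spread may be technical. It was estimated for each entry from input and footprint libraries together, so p-values for inputs also rest on the footprint libraries.

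Alpha- and beta-tubulin pair into the dimers from which microtubules, the tracks of the cytoskeleton and the fibres of the mitotic spindle, are built. Tubulin mRNAs are known for autoregulation during translation: when free dimers are plentiful, the factor TTC5 recognises the start of a newly made tubulin chain on the ribosome, and through the adaptor SCAPER the CCR4-NOT deadenylase complex is recruited and the mRNA decays. The coding sequences of the alpha genes resemble each other closely, as do those of the beta genes, and short fragments can match more than 1 gene. The sources used here do not say how reads that match several genes were divided or whether counting used the strand. The split of values within the alpha or within the beta genes is therefore uncertain, and sums over each type are given beside the single genes. These sums, and all shares and ratios of alpha or beta TPM, cover only the 4 alpha and 4 beta members analysed. TUBB and tubulin genes outside the members, such as TUBA3C, are not in them.

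The levels are TPM, a share of all transcripts corrected for length, over all RNA of a library. Messenger RNA took 3.71% to 3.99% of the TPM in vector inputs and 4.22% to 4.50% in QKI7 inputs, but 0.626% to 0.629% in vector footprints and 0.610% to 0.616% in QKI7 footprints, where ribosomal RNA took 97.3% and 96.8%. QKI was at 3.01 and 3.45 TPM in vector inputs against 1580 and 1749 TPM in QKI7 inputs. The read depth of the libraries is unknown, since TPM does not carry it, and no counting interval can be given; deposited values have 2 decimals. Of 8 mesenchymal and osteosarcoma markers, 7 reached 1 TPM in the inputs (COL1A2 did not), with VIM at 74.6 to 102 TPM. Of 9 blood, epithelial and neural markers, KRT18 alone did (28.5 to 35.3 TPM), while EPCAM and CDH1 stayed at or below 0.18 TPM. In such bulk libraries fewer cells of a type and less RNA per cell cannot be told apart.

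TUBA1B (chromosome 12, 49127782 to 49131395), TUBA1A (49184795 to 49189080) and TUBA1C (49227926 to 49274600) lie in the same stretch of GRCh38.p14. TUBB2A lies on chromosome 6 (3153666 to 3157544), TUBB3 on chromosome 16 (89921925 to 89936097), TUBB4B on chromosome 9 (137241287 to 137243707) and TUBB6 on chromosome 18 (12307669 to 12329826). TUBA4A (chromosome 2, 219249710 to 219254740) overlaps STK16 and TUBA4B, and TUBB6 overlaps AFG3L2 and TUBB4B overlaps CIMIP2A, so part of their reads may belong to those genes. TUBA1B and TUBA1C had equal input RNA within their spread and moved together in footprints, whereas TUBB4B did not move with them. The 250 bases before the RefSeq start sites of these 3 genes are shown to compare their upstream sequence. Its relation to the footprint values was not tested. Capitals mark CCAAT and GGGCGG, searched on both strands (ATTGG and CCGCCC in reverse), overlaps counted. The windows are chr12:49131396-49131645 on the minus strand for TUBA1B, chr12:49227676-49227925 and chr12:49264832-49265081 on the plus strand for the first and the last of 3 starts of TUBA1C, and chr9:137241037-137241286 on the plus strand for TUBB4B.
TUBA1B: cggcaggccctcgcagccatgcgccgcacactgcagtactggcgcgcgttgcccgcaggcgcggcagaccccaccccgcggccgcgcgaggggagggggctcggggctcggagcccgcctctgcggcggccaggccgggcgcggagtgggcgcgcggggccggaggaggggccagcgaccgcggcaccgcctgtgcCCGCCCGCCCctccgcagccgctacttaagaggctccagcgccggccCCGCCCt
TUBA1C first start: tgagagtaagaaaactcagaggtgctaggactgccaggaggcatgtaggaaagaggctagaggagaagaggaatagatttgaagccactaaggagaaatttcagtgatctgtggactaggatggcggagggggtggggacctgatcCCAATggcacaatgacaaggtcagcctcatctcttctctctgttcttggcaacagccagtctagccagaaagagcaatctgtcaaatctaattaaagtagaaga
TUBA1C last start: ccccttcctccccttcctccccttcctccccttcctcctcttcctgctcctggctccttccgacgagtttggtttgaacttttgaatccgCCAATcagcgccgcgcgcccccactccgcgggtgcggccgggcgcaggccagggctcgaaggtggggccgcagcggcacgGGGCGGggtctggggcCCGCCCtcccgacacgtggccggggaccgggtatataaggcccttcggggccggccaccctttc
TUBB4B: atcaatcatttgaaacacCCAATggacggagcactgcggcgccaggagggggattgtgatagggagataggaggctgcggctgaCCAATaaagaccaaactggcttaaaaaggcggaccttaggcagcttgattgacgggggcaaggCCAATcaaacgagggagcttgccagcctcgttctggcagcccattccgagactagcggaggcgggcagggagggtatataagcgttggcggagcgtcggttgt
The TUBA1B window held 3 matches of GGGCGG and 0 of CCAAT, and the TUBB4B window 3 of CCAAT and 0 of GGGCGG. The first TUBA1C window held 1 of CCAAT and 0 of GGGCGG, and the last 1 of CCAAT and 2 of GGGCGG. Over 35116 RefSeq promoter windows of this length, 32.0% held CCAAT and 42.6% held GGGCGG. These matches describe the letters only; the start sites used in U2OS cells were not measured.

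In input RNA, 4 tubulin mRNAs were abundant and 4 were scarce, and the order changed little between constructs. TUBB6, a beta isotype of many tissues, had 11.84 and 11.68 TPM in the vector inputs and 10.66 and 11.16 TPM in the QKI7 inputs. TUBB4B, a widely expressed beta isotype, had 8.93 and 9.01 TPM in vector and 10.90 and 10.97 TPM in QKI7 inputs. These led among the beta members analysed, which leave out TUBB, and in the QKI7 inputs their values overlapped.

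TUBA1B, a main alpha isotype of dividing cells, had 7.01 and 6.46 TPM in vector inputs and 6.95 and 6.86 TPM in QKI7 inputs. TUBA1C, its close paralogue, had 5.82 and 7.08 TPM in vector inputs and 7.61 and 6.78 TPM in QKI7 inputs. The levels of this pair overlapped in both constructs, and together they made up 91.6% to 93.2% of the TPM of the alpha members in each input library.

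The remaining isotypes stood well below. TUBB2A had 1.58 and 2.09 TPM in vector and 1.05 and 1.67 TPM in QKI7 inputs, and TUBB3, known as the neuronal beta isotype, 1.79 and 1.48 against 1.95 and 1.41 TPM, so these 2 were not separated. TUBA1A, the alpha isotype prominent in neurons, had 0.86 and 0.99 TPM in vector and 1.07 and 1.22 TPM in QKI7 inputs. TUBA4A was the lowest in all 4 groups, at 0.03 to 0.11 TPM in inputs, a few steps above the rounding of the table.

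**Figure D1:**
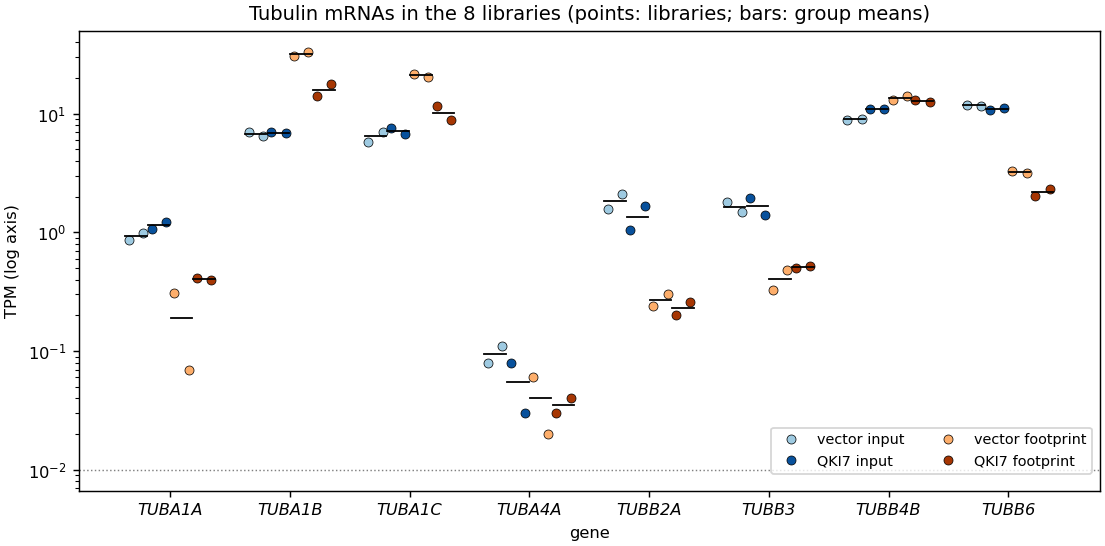
TPM on a log axis of 8 tubulin genes; each point is a library, each bar the mean of the 2 libraries of a group (blue for inputs, orange for footprints, darker for QKI7), and the dotted line is the rounding step of 0.01 TPM. TUBA1B and TUBA1C have footprints above their inputs and lower footprints with QKI7, while TUBB6 has footprints of 2.01 to 3.32 TPM below inputs of 10.66 to 11.84 TPM.

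Footprints put the same mRNAs in another order. TUBA1B led with 30.44 and 33.01 TPM in the vector footprints, followed by TUBA1C with 21.70 and 20.51 TPM and TUBB4B with 13.08 and 14.23 TPM. TUBB6, the first in vector inputs, had 3.32 and 3.17 TPM. No values of these 4 neighbours overlapped.

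The low members stayed low. TUBB3 had 0.33 and 0.48 TPM in vector footprints, TUBB2A 0.24 and 0.30 TPM, TUBA1A 0.31 and 0.07 TPM, and TUBA4A 0.06 and 0.02 TPM. TUBB2A and TUBA1A overlapped. Between its replicates TUBA1A differed more than any other member did in proportion, so its footprint level is poorly determined.

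The ratio of footprint to input TPM was high for 3 tubulin mRNAs. It was 4.71 for TUBA1B, 3.27 for TUBA1C and 1.52 for TUBB4B in vector cells, as ratios of group means (n = 2 libraries each). Over the 6888 mRNAs with at least 1 TPM of input in vector cells, the median ratio was 0.0412 and 2.79% had a ratio above 1; TUBA1B stood at percentile 99.7 of these mRNAs, TUBA1C at 99.4 and TUBB4B at 98.3. TUBB6 (0.276), TUBB3 (0.248) and TUBB2A (0.147) stood at percentiles 90.0, 88.6 and 81.2. The ratio of TUBA1B was thus 114 times the median mRNA and that of TUBB2A 3.57 times. In QKI7 cells the ratios were 2.29 for TUBA1B, 1.41 for TUBA1C, 1.17 for TUBB4B, 0.199 for TUBB6, 0.304 for TUBB3 and 0.169 for TUBB2A, at percentiles 99.4, 98.8, 98.4, 89.1, 93.1 and 87.1 of 7630 mRNAs.

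**Figure D2:**
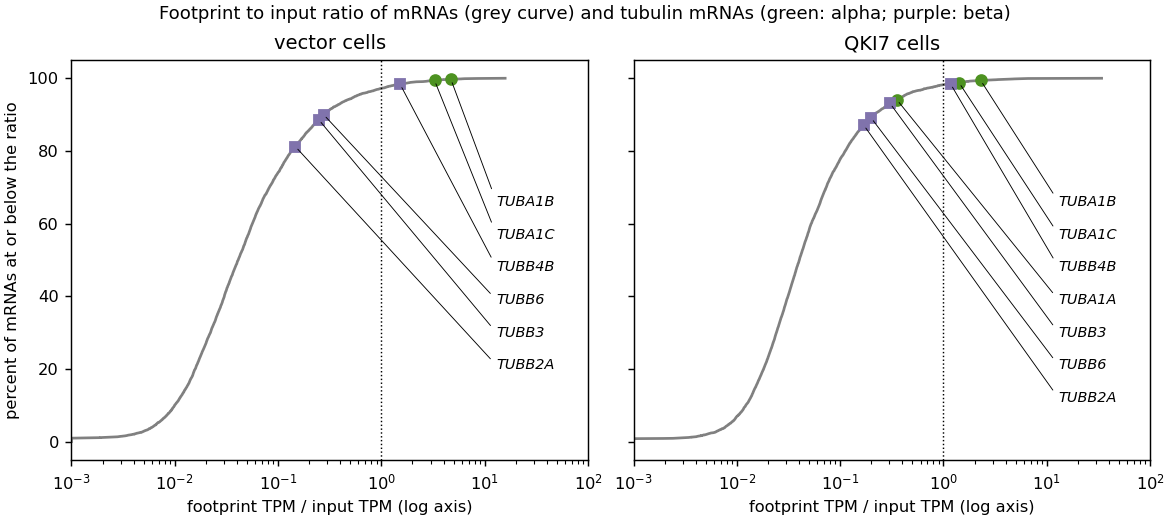
Cumulative percent of mRNAs (at least 1 TPM of input) against the ratio of footprint to input TPM on a log axis, in vector cells and QKI7 cells; green circles are alpha and purple squares beta genes that meet the same minimum, and the dotted line is a ratio of 1. TUBA1B, TUBA1C and TUBB4B lie right of that line in both panels, and the other tubulin genes shown lie at 0.354 or below.

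The difference of footprint and input was tested by limma on log2(TPM + 1) over 5806 entries, those averaging 1 TPM or more across the 8 libraries, which include 5 members: TUBA1B, TUBA1C, TUBB3, TUBB4B and TUBB6. In vector cells 3 of the 5 were called higher and 2 lower in footprints, where 97.6% of all entries were called in either direction (7.7% higher and 89.9% lower) and the median entry differed by -1.81. TUBA1B differed by 2.08 (SE 0.112, adjusted p = 1.19e-07), TUBA1C by 1.57 (SE 0.134, adjusted p = 3.26e-06) and TUBB4B by 0.55 (SE 0.0739, adjusted p = 8.07e-05). TUBB6 differed by -1.59 (SE 0.0741, adjusted p = 4.27e-08) and TUBB3 by -0.91 (SE 0.104). Relative to the median entry these are 3.89, 3.38, 2.36, 0.22 and 0.90. TUBB3 passed the minimum only through its inputs, with footprints of 0.33 to 0.52 TPM, so its call as lower was favoured in advance. The footprint libraries used here also guided the choice of members, so the p-values of the members are descriptive. In QKI7 cells, where 98.2% of entries were called (7.42% higher and 90.8% lower), 3 were again higher and 2 lower, TUBB3 among the latter. The same 5 differed by 1.08, 0.44, 0.21, -1.91 and -0.82 (adjusted p = 1.38e-05, 0.0119, 0.0215 and 1.11e-08 for all but TUBB3). The calls of TUBA1C and TUBB4B as higher ended without QKI7 footprint replicate 1 (adjusted p = 0.0828 and 0.0903), that of TUBA1C also without QKI7 input replicate 2 (adjusted p = 0.0746) and that of TUBB4B without QKI7 input replicate 1 (adjusted p = 0.0576). The sign for TUBB6 and TUBB3 depends on the scale: rescaled to equal sums after removal of ribosomal, small non-coding and histone RNA and spike-ins, called the mRNA scale here, they differed by 0.70 and 0.52 in vector and 0.45 and 1.06 in QKI7 cells (adjusted p = 0.000892, 0.0871, 0.00665 and 0.007), and TUBA1B by 4.79 in vector cells (adjusted p = 1.26e-06).

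The comparison of inputs asks whether tubulin mRNA levels differed with QKI7. They differed little: the summed alpha TPM was 13.77 and 14.64 in the vector inputs and 15.71 and 14.89 in the QKI7 inputs, a ratio of 1.08, and the summed beta TPM was 24.14 and 24.26 against 24.56 and 25.21, a ratio of 1.03. On the mRNA scale these ratios were 0.941 and 0.899. Of the 5 members tested, 1 was called higher and 0 lower, where 44.6% of all entries were called, 39.1% higher and 5.48% lower. The median change of the 5 was 0.03 and that of all entries 0.15 on the log2 scale. The split depends on the scaling: with median-of-ratios scaling 1 member was lower and 0 higher, beside 17.3% of all entries lower and 18.3% higher, and with quantile normalization likewise 1 and 0, beside 15.6% and 18.8%.

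The call was TUBB4B, whose QKI7 inputs both lay above its vector inputs (8.97 ± 0.0566 and 10.9 ± 0.0495 TPM, SD, n = 2 each; log2 change 0.26, SE 0.0739, limma adjusted p = 0.0237). It stands 0.11 above the change of the median entry, and the call ended without any of the 4 input libraries in turn (adjusted p = 0.0832 and 0.0583 without vector input replicates 1 and 2, and 0.0700 and 0.0572 without QKI7 input replicates 1 and 2) and on the mRNA scale (log2 change 0.09, adjusted p = 1.00). TUBA1B changed by 0.03 (SE 0.112, adjusted p = 0.84), TUBA1C by 0.14 (SE 0.134, adjusted p = 0.418) and TUBB3 by 0.02 (SE 0.104, adjusted p = 0.898), differences within the spread of replicates. TUBB6 changed by -0.10 (SE 0.0741, adjusted p = 0.299), with its QKI7 inputs below its vector inputs, and its call depended on the scaling: median-of-ratios and quantile scaling, which set the median entry near no change, gave -0.29 and -0.24 (adjusted p = 0.0259 and 0.0449). The 3 members below the minimum were not tested; TUBA1A was higher in both QKI7 inputs than in the vector inputs by a ratio of 1.24, and TUBB2A and TUBA4A overlapped between constructs.

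In footprints TUBA1B and TUBA1C, the main alpha mRNAs, were lower in QKI7 cells, while the scarce TUBA1A was higher, TUBA4A overlapped between constructs, and the beta mRNAs differed among themselves. TUBA1B had 30.44 and 33.01 TPM in vector and 13.97 and 17.68 TPM in QKI7 footprints, a ratio of 0.499 and a log2 change of -0.97 (SE 0.112). TUBA1C had 21.70 and 20.51 against 11.54 and 8.80 TPM, a ratio of 0.482 and a log2 change of -1.0 (SE 0.134). For each of this pair the QKI7 values lay well below the vector values, while the inputs overlapped.

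TUBB4B had 13.08 and 14.23 against 13.02 and 12.64 TPM in footprints, a ratio of 0.940 and a log2 change of -0.08 (SE 0.0739). TUBB6 had 3.32 and 3.17 against 2.01 and 2.34 TPM, a ratio of 0.670 and a log2 change of -0.42 (SE 0.0741). TUBB3 had 0.33 and 0.48 against 0.50 and 0.52 TPM, a log2 change of 0.11 (SE 0.104). The groups of these 3 did not overlap, but for TUBB4B and TUBB3 they lay close together.

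Among the untested members, TUBA1A had 0.31 and 0.07 against 0.41 and 0.40 TPM, TUBB2A 0.24 and 0.30 against 0.20 and 0.26 TPM, and TUBA4A 0.06 and 0.02 against 0.03 and 0.04 TPM. TUBA1A thus did not share the direction of TUBA1B and TUBA1C, at a level where its vector libraries differed by more than the groups. In the fit over all entries 3 of the 5 members tested were past the threshold, all lower, beside 8.2% of all entries in either direction, 4.6% lower and 3.6% higher; nothing is read from that count, since the members were chosen with this contrast known. Of 5100 mRNA entries tested, 6 had a more negative footprint change than TUBA1C and 7 than TUBA1B.

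**Figure D3:**
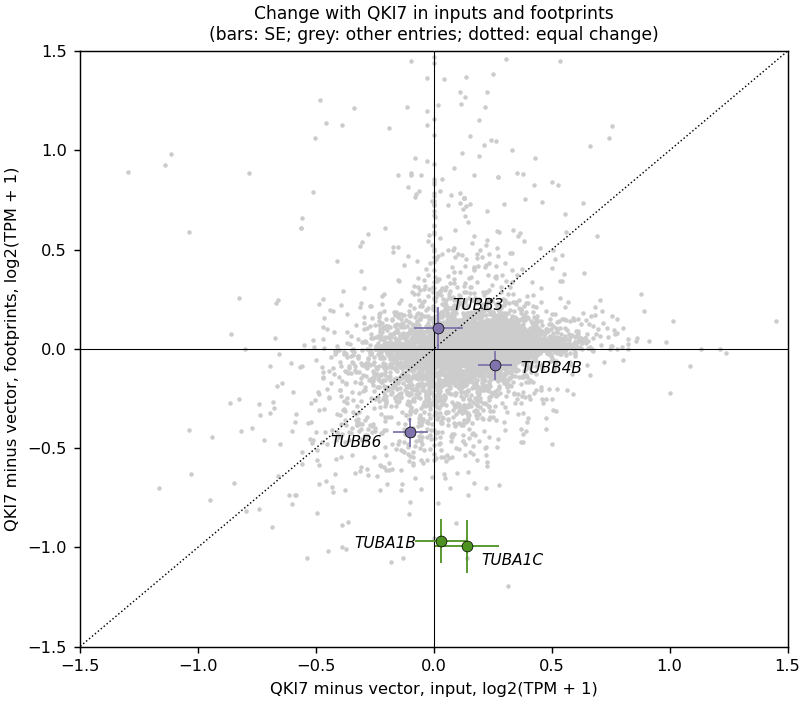
QKI7 minus vector on the log2(TPM + 1) scale in inputs (horizontal) and footprints (vertical) for the 5 tubulin genes tested (green alpha, purple beta; bars are the SE of the fit) and all other entries in grey; 47 entries lie outside the axes of ±1.5. TUBA1B and TUBA1C sit near -1 in footprints and near 0 in inputs, TUBB6 at -0.42 in footprints, and TUBB4B and TUBB3 near 0.

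Summed over the type, alpha footprints had 52.51 and 53.61 TPM in vector and 25.95 and 26.92 TPM in QKI7 cells, a ratio of 0.498 ± 0.0148 (propagated SD). Beta footprints had 16.97 and 18.18 against 15.73 and 15.76 TPM, a ratio of 0.896 ± 0.0436. The difference of the alpha sums was far larger than their replicate spread, that of the beta sums only somewhat larger. Over the same libraries the summed TPM of 8 mesenchymal markers was 72.5 to 72.67 in vector and 53.67 to 56.28 in QKI7 footprints (5 of 8 reached 1 TPM, COL1A2 near 0). Most of that sum was LGALS1 (means of 47.05 and 35.07 TPM) and S100A6 (12.86 and 8.01 TPM). VIM was also lower, COL1A1 was higher (0.315 and 0.74 TPM), and FN1, SPARC and TAGLN overlapped between constructs. The sum of 9 markers of other cell types was 6.96 to 7.83 against 6.06 to 6.36 (1 of 9, PTPRC and CDH1 at 0). The part of all these markers in the tubulin values was not tested. An exact permutation test of 2 against 2 libraries cannot go below p = 0.333, so no p is given for these sums. Over the members analysed, the ratio of alpha to beta TPM was 3.09 and 2.95 in vector footprints and 1.65 and 1.71 in QKI7 footprints. In inputs it was 0.570 and 0.604 with vector and 0.640 and 0.591 with QKI7. It leaves out TUBB, which was not analysed, and TUBA3C, at 1.95 and 1.59 TPM in vector footprints. In footprints the constructs did not overlap in this ratio, and in inputs they did.

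Over the members of each type, the shares differed less between constructs than between inputs and footprints. TUBA1B and TUBA1C held 99.3% and 99.8% of alpha TPM in vector footprints and 98.3% and 98.4% in QKI7 footprints. TUBB4B held 77.1% and 78.3% of beta TPM in vector and 82.8% and 80.2% in QKI7 footprints, against 37.0% to 44.4% in inputs. TUBB6 held 43.4% to 49.0% of beta TPM in inputs but 12.8% to 19.6% in footprints. As a share of the TPM of all mRNA, the 8 members took 0.102% and 0.0975% of vector inputs, 0.0894% and 0.0949% of QKI7 inputs, 1.11% and 1.14% of vector footprints and 0.683% and 0.692% of QKI7 footprints. Moving the denominator to mRNA therefore left the footprint difference in place: the alpha share was 0.838% and 0.852% in vector and 0.425% and 0.437% in QKI7 footprints.

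**Figure D4:**
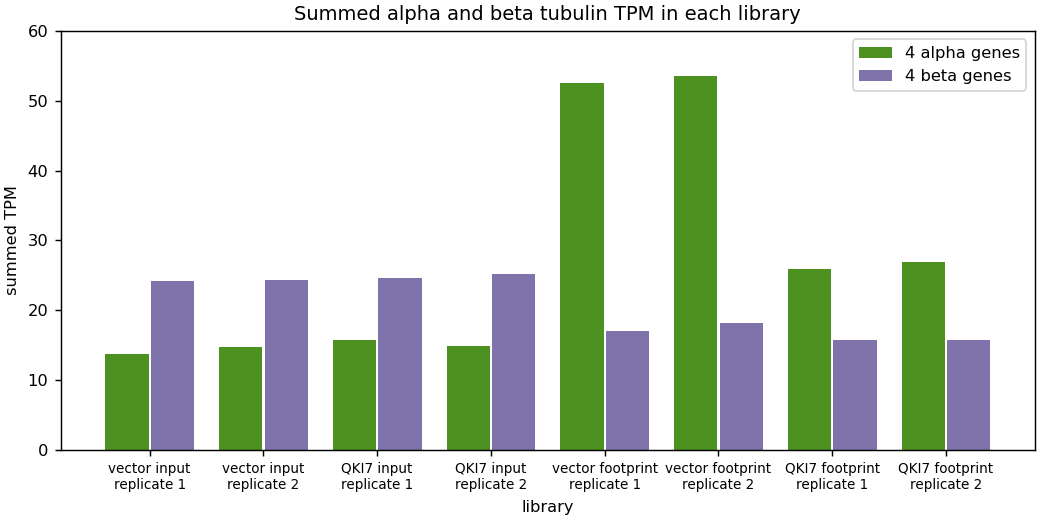
Summed TPM of the 4 alpha genes (green) and the 4 beta genes (purple) in each of the 8 libraries, on a linear axis from 0. Alpha sums are 13.77 to 15.71 in inputs, 52.51 and 53.61 in vector footprints and 25.95 and 26.92 in QKI7 footprints, while beta sums run from 15.73 to 25.21 over all libraries.

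Translation efficiency is the footprint change minus the input change with QKI7. It was -1.14 (SE 0.189) for TUBA1C, -1.0 (SE 0.159) for TUBA1B, -0.34 (SE 0.105) for TUBB4B, -0.32 (SE 0.105) for TUBB6 and 0.09 (SE 0.147) for TUBB3, where the median entry stood at -0.16. On the mRNA scale the same values were -1.01, -0.83, -0.16, -0.25 and 0.54, where the median entry stood at 0.08. Past the threshold were 3 of the 5 members, all lower, and 25.2% of all entries, 21.6% lower and 3.57% higher. On the mRNA scale 0 of 8 members were, beside 1.46% of all entries, 0.282% lower and 1.18% higher. This count too is a description, and it rests on the footprint libraries that guided the choice. In sums, the ratio of footprint to input TPM went from 3.74 in vector to 1.73 in QKI7 cells for alpha and from 0.726 to 0.633 for beta.

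The counts in the lists that follow stand beside 39.1% of all entries higher and 5.48% lower in inputs, 3.6% and 4.6% in footprints, and 3.57% and 21.6% in translation efficiency. Of the 9 other alpha and beta genes, 2 were tested and neither passed in inputs, footprints or translation efficiency. TUBA3C, an alpha gene with a near-identical copy in TUBA3D, had 1.95 and 1.59 TPM in vector and 1.46 and 1.58 TPM in QKI7 footprints (log2 change -0.13, adjusted p = 0.528), beside inputs of 1.85 and 1.83 against 1.29 and 1.64 TPM (adjusted p = 0.0849). TUBB2B, a neighbour and near copy of TUBB2A, had footprints of 0.22 and 0.12 against 0.38 and 0.10 TPM (adjusted p = 0.902). With median-of-ratios scaling and quantile normalization TUBA3C was called lower in inputs (limma log2 changes -0.33 and -0.32, adjusted p = 0.0372 and 0.0449). The remaining 7 were at or below 0.48 TPM in every library.

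Of the gamma, delta and epsilon tubulins and the gamma-tubulin complex, which nucleates microtubules, 6 of 12 listed genes were tested. In inputs TUBGCP3, a core subunit of that complex, rose from 2.75 ± 0.0707 to 3.73 ± 0.0212 TPM (SD, n = 2; log2 change 0.33, adjusted p = 0.00212), and MZT2B, a small subunit, was lower in QKI7 cells, 3.14 ± 0.354 beside 5.05 ± 0.382 TPM (log2 change -0.55, adjusted p = 0.00364). In footprints MZT2A, the near copy of MZT2B, was higher with QKI7, 1.22 ± 0.113 beside 0.725 ± 0.0212 TPM (log2 change 0.36, adjusted p = 0.0125). TUBG1, the main gamma-tubulin, changed by -0.08 in inputs and -0.02 in footprints (adjusted p = 0.517 and 0.991). On the mRNA scale the input calls of TUBGCP3 and MZT2B ended (adjusted p = 1.00 and 0.218), and that of MZT2A in footprints held (adjusted p = 0.0248). In translation efficiency 2 genes were higher and 1 lower. MZT2B and MZT2A stood at 0.57 and 0.36 (adjusted p = 0.0243 and 0.0297) and TUBGCP3 at -0.28 (adjusted p = 0.0248). TUBGCP3 had footprints of 0.07 to 0.12 TPM, so its value mostly turns its input change around. The mRNA scale made none of these calls (adjusted p = 0.168, 0.0854 and 0.501), and TUBGCP3 changed sign there (0.36). As near copies MZT2A and MZT2B may share reads, so both are uncertain.

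In the autoregulation list (TTC5, SCAPER and CCR4-NOT subunits), 4 of 12 listed genes were tested; 3 were higher in inputs, at a background of 39.1%, and 0 passed in footprints, at a background of 8.2% in either direction. With so few genes tested, nothing particular to the list is read from this. SCAPER, the adaptor, rose from 3.09 ± 0.382 to 4.29 ± 0.177 TPM in inputs (SD, n = 2; log2 change 0.37, adjusted p = 0.00501), CNOT1, the scaffold of the deadenylase, by 0.45 (adjusted p = 0.00261) and CNOT4 by 0.23 (adjusted p = 0.0155). The list median of 0.30 stands beside 0.15 for all entries, and on the mRNA scale SCAPER, CNOT1 and CNOT4 were not called (adjusted p = 1.00, 0.5 and 1.00); with median-of-ratios scaling and quantile normalization CNOT4 was not called either (adjusted p = 0.105 and 0.176). TTC5, the sensor, was below the minimum: 1.05 and 0.95 TPM in vector and 1.03 and 1.08 TPM in QKI7 inputs, 0.23 and 0.25 in vector and 0.15 and 0.18 in QKI7 footprints. Its inputs lay close together and its QKI7 footprints lay below its vector footprints. SCAPER footprints were 0.02 and 0.03 against 0.02 and 0.06 TPM (adjusted p = 0.99), near the rounding step. Of the translation efficiency values of this list, 2 were lower past the threshold, CNOT1 at -0.42 and SCAPER at -0.35 (adjusted p = 0.0229 and 0.0385). Both genes passed the minimum only through their inputs, with CNOT1 footprints of 0.18 to 0.21 TPM. At such levels log2(TPM + 1) of footprints hardly moves, so these values mostly turn the input changes around. The mRNA scale did not make these calls and gave -0.13 for CNOT1 and 0.17 for SCAPER (adjusted p = 0.735 and 0.928).

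Folding of tubulin needs prefoldin, which hands the chain to the chaperonin, and the cofactors that assemble the dimer. Of 13 such genes, 10 were tested; in inputs 2 were lower and 1 higher, beside 5.48% and 39.1% of all entries, and in footprints 2 were lower and 0 higher, beside 4.6% and 3.6%. With median-of-ratios scaling the input counts were 6 lower and 0 higher, beside 17.3% and 18.3% of all entries. With quantile normalization they were 5 and 0, beside 15.6% and 18.8%. PFDN2, a prefoldin subunit, was lower in QKI7 inputs, at 8.59 ± 0.629 TPM beside 13.4 ± 0.771 TPM in vector (SD, n = 2; log2 change -0.59, adjusted p = 0.00177), and in QKI7 footprints, at 2.88 ± 0.0141 beside 3.87 ± 0.170 TPM (log2 change -0.33, adjusted p = 0.04), calls that the mRNA scale also made (adjusted p = 0.00513 and 0.0123). PFDN4 fell in footprints by 0.37 (adjusted p = 0.028). The cofactor TBCA fell by 0.18 and TBCD rose by 0.15 in inputs (adjusted p = 0.0311 and 0.0425), neither of them on the mRNA scale (adjusted p = 0.163 and 1.00), where TBCD changed sign (-0.01), as it did with median-of-ratios scaling and quantile normalization (-0.02 and -0.01, adjusted p = 0.84 and 0.885). In translation efficiency 1 of the 10 was lower and 0 higher. This was PFDN5, at -0.43 (adjusted p = 0.0417), a call that ended on the mRNA scale (-0.28, adjusted p = 0.474). The direction depended on the scaling: with median-of-ratios scaling 0 were lower and 3 higher, beside 10.7% and 8.77% of all entries. Quantile normalization also gave 0 lower and 3 higher, beside 10.8% and 7.91%.

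Of 14 listed tubulin-modifying enzymes, 4 were tested; 3 were higher in inputs, TTLL5, TTLL3 and TTL by 0.45, 0.40 and 0.20 (adjusted p = 0.0031, 0.00298 and 0.0177), at a background of 39.1%, and 0 passed in footprints. TTLL5 and TTLL3 passed the minimum only through their inputs, with footprints of 0.04 to 0.08 TPM, so a footprint call was hardly possible for them. On the mRNA scale 3 of 13 enzymes were higher and 0 lower in footprints, beside 8.04% and 3.98% of all entries. With median-of-ratios scaling and with quantile normalization 2 were higher and 1 lower in inputs. Under these scalings 18.3% and 18.8% of all entries were higher and 17.3% and 15.6% lower, the background for the next lists too. Of 24 microtubule-associated and dynamics proteins, 14 were tested; 7 were higher in inputs and 0 lower, beside 39.1% and 5.48% of all entries, but 4 higher and 4 lower with median-of-ratios scaling and 5 and 2 with quantile normalization. Among the 7, CLASP1, CKAP5, MAP4 and MAP1B were higher by 0.45, 0.43, 0.42 and 0.33 (adjusted p = 0.00226, 0.00226, 0.0052 and 0.00523), with a list median of 0.19. In footprints STMN1, which sequesters tubulin dimers, was lower with QKI7, 2.17 ± 0.156 beside 3.11 ± 0.346 TPM (SD, n = 2; log2 change -0.37, adjusted p = 0.0454), and MAP7D1 was higher, 0.4 ± 0.0424 beside 0.155 ± 0.00707 TPM (log2 change 0.28, adjusted p = 0.027). Of 22 motor genes, 18 were tested; NDEL1, KIF3A, KIF1B and KIF1C rose in inputs by 0.35, 0.30, 0.30 and 0.20 (adjusted p = 0.01, 0.0106, 0.00438 and 0.0323), with a list median of 0.16, and 0 passed in footprints; with median-of-ratios scaling and quantile normalization 2 and 1 motor genes were higher in inputs. None of these rises in inputs was called on the mRNA scale. In footprints that scale called 2 of 22 motor genes higher and 0 lower, beside 8.04% and 3.98% of all entries. Over all pathway lists 19 of 58 genes tested were higher (32.8%, beside 39.1% of all entries) and 3 lower (5.17%, beside 5.48%) in inputs, 2 higher and 3 lower in footprints, and 3 higher and 15 lower in translation efficiency. These splits follow the scaling: with median-of-ratios scaling they were 11 higher and 13 lower in inputs and 8 higher and 5 lower in translation efficiency. With quantile normalization they were 11 and 10, and 7 and 8. In translation efficiency 8.77% of all entries were higher and 10.7% lower with the former scaling, and 7.91% and 10.8% with the latter.

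Over the 8 libraries, the entries whose centred log2(TPM + 1) values lay nearest to the median profile of the 5 members tested were RSL24D1, MT1E, RBM3, EIF3E and EMC4, at Euclidean distances of 0.232, 0.337, 0.355, 0.355 and 0.371, beside a median of 3.2 for all entries tested. The members themselves lay at 0.304 (TUBB4B), 1.28 (TUBA1C), 1.74 (TUBB3), 2.02 (TUBA1B) and 2.95 (TUBB6), so the median profile is close to that of TUBB4B and none of the other members tested resembles it as closely as those 5 genes.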

How the data were processed

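The authors deposited 1 table of TPM for 26902 genes and RNAs in 8 libraries; STAR, RSEM (1.2.31) and GRCh38 are named, without settings, per the submitters' processing notes. TPM of a library add up over all entries, ribosomal RNA and 92 spike-ins included. Groups and replicate numbers came from the labels. Of the entries, 23970 matched a RefSeq symbol (GRCh38.p14), 1395 an older symbol and 1537 none; classes, coordinates and promoter sequences come from RefSeq.

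limma 3.58.1 in R 4.3.3 (lmFit, eBayes with a variance trend) was run on log2(TPM + 1) of 5806 entries (mean TPM of 1 or more), as 4 group means, two-sided, with Benjamini-Hochberg adjustment over all entries and a threshold of 0.05. A minimum on the mean can pass a gene through the group where it is high. Where footprints lie far below 1 TPM, log2(TPM + 1) hardly moves in them. A footprint call is then hardly possible, and translation efficiency is mostly the input change with its sign turned. The mRNA scale removed 2670 entries (ribosomal and small non-coding RNA, histone mRNAs, spike-ins), rescaled the rest and tested 16644. Values drawn around the measured means with the measured spread and changed by 1 (log2) were recovered for 99% of 100 entries in inputs, 96% in footprints and 96% in translation efficiency. For 0.5 these were 76%, 77% and 57%, and 8.38%, 4.42% and 5.56% of all calls were false. The changed entries had a mean log2(TPM + 1) above 1, so recovery of scarcer entries was not measured. No other entry differed between constructs in the drawn values, whereas 44.6% of entries were called in the measured inputs.

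The members and gene lists were chosen with earlier results of these data known. All members are named, and from each pathway list up to 4 genes past the threshold in inputs and in footprints by size of change. TTC5 and SCAPER are named in any case, as are the 5 entries nearest in profile. For translation efficiency, genes past the threshold are named for the gamma-tubulin, autoregulation and folding lists. The remaining lists enter there only through the counts over all pathway lists. Alternatives were other pseudocounts, filters, scalings and fits, a replicate block, and leaving out each library.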

Additional observations from a re-analysis of the deposited data

Results flagged for a closer look

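For 3 members the interaction of construct and library type lay past the threshold of the fit over all entries, which is given as a description, since the genes were chosen with the footprint libraries known. For TUBA1C the footprint change minus the input change was -1.14, for TUBA1B -1.0 and for TUBB4B -0.34 on the log2(TPM + 1) scale. The median entry stood at -0.16. On the mRNA scale, where the median entry stood at 0.08, the values were -1.01, -0.83 and -0.16. There none of the 3 was past the threshold, beside 1.46% of all entries, 0.282% lower and 1.18% higher. For TUBA1B and TUBA1C the difference lies in the footprints, with QKI7 to vector ratios of 0.499 and 0.482, while for TUBB4B it combines a higher input (ratio 1.22) with a footprint ratio of 0.940. TUBB4B was no longer past the threshold in 15 of 17 alternatives, including without each of the 8 libraries in turn.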

How the results depend on the processing

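The footprint log2 changes of TUBA1B and TUBA1C, a description since the genes were chosen with this contrast known, ran from -1.13 to -0.81 and from -1.17 to -0.82 over 17 alternatives. With only the libraries of the comparison 0 members were called in footprints, where 1.27% of all entries were called. TUBB6 was also not called without vector footprint replicate 1, vector footprint replicate 2 or QKI7 footprint replicate 1. Leaving out 1 library gave footprint changes of -0.50 to -0.35 for TUBB6. The translation efficiency values were then -1.16 to -0.84 for TUBA1B and -1.31 to -0.96 for TUBA1C. In inputs 0 members were called with a pseudocount of 0.1, on the mRNA scale and with only the libraries of the comparison. These settings called 6.46%, 0.595% and 15.7% of all entries. In translation efficiency 0 were called on the mRNA scale, beside 1.46% of all entries. Footprint against input in QKI7 cells ran from 0.26 to 0.62 for TUBA1C and 0.19 to 0.23 for TUBB4B without 1 library. On the mRNA scale the footprint minus input difference changed sign for TUBB3 (0.52 in vector, 1.06 in QKI7 cells), TUBB6 (0.70 and 0.45), TUBA1A (1.25 in QKI7 cells) and TUBB2A (0.23 in QKI7 cells); the scale removes ribosomal RNA, which takes most footprint TPM. The summed alpha and beta input ratios moved to 0.941 and 0.899 on the mRNA scale; without 1 library they were 1.05 to 1.11 and 1.01 to 1.04, and the footprint ratios 0.489 to 0.507 and 0.866 to 0.928.

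Genes called in the pathway lists, 22 in inputs, became 3 with a pseudocount of 0.1, 37 with no filter on low values, 4 at a mean of at least 5 TPM, 1 on the mRNA scale and 10 with only the input libraries, and 15 to 28 without 1 library. The 5 in footprints became 10, 1, 17 (mRNA scale), 8 (median-of-ratios) and 0 (only the footprint libraries) under the pseudocount, the open filter and these settings, and 0 to 4 without 1 library. The 18 in translation efficiency became 1 with a pseudocount of 0.1, 5 with no filter, 5 at a mean of at least 5 TPM and 3 on the mRNA scale, and 1 to 22 without 1 library. Over all entries the mRNA scale called 99 of 16644 in inputs, 2000 in footprints and 243 in translation efficiency, against 2587, 476 and 1461 of 5806. A pseudocount of 0.1 called 6.46%, 19.4% and 3.74% of all entries in these comparisons, and no filter 21.7%, 1.12% and 3.45%. Only the libraries of the comparison gave 15.7% in inputs and 1.27% in footprints.

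With the replicate number as a replicate block, 3 members stayed called in footprints and 2 in translation efficiency, beside 7.29% and 18.9% of all entries. With that block 2 pathway genes were called in footprints. With culture as the block, 2 members and 10 pathway genes were called in translation efficiency, beside 19.6% of all entries. The member counts in these fits are a description, since the members were chosen with the footprint libraries known. Differences between replicates 1 and 2 correlated between groups at r = -0.0881 to 0.125 across entries, which does not settle whether same-numbered libraries share a culture; the numbers were not taken as pairs. The read depth is unknown, which limits values near the 0.01 TPM rounding, TUBA4A among them; the causes of these shifts were not tested.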

Other observations

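TUBA1B and TUBA1C varied in opposite directions between replicates in 3 of 4 groups; in the QKI7 footprints their sum also had a smaller SD than either gene. In the QKI7 footprints TUBA1B had 13.97 and 17.68 TPM and TUBA1C 11.54 and 8.80 TPM, with SDs of 2.62 and 1.94, but the sum was 25.51 and 26.48 TPM (SD 0.686). In the vector inputs the pair had 7.01 and 6.46 TPM and 5.82 and 7.08 TPM, and the sum 12.83 and 13.54 TPM. In the vector footprints the sum was 52.14 and 53.52 TPM.

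Among genes below the minimum for testing, TUBD1, the delta-tubulin, had 0.76 and 0.94 TPM in vector inputs and 1.69 and 1.48 TPM in QKI7 inputs, with footprints of 0.33 and 0.29 against 0.24 and 0.26 TPM. TUBA3C had footprints near its input level in both constructs, unlike its near copy TUBA3D, which was listed at 0 in 3 of the 4 footprint libraries and at 0.09 TPM in QKI7 footprint replicate 2.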
